A study of Mus musculus with 44 samples.

Results

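The liver response of wild-type (WT) mice to a high-fat diet lacking choline (CD-HFD) was measured by RNA sequencing of whole liver. It was read from 12 of the 44 libraries of the study, the 6 of WT mice on CD-HFD and the 6 of WT mice on the control diet, which was a normal chow. All mice were 2 months old when the diets began and were fed for 6 months. The members were taken from the labels, so no measured value chose them. The other libraries came from Ripk3-/- mice (Ripk3KO) and Mlkl-/- mice (MlklKO) on the same diets and from a low-fat diet lacking choline (CD-LFD), and they entered the fit mainly to estimate the spread within groups. Those used for comparison below are 6 WT libraries on CD-LFD, 6 Ripk3KO controls and 4 Ripk3KO on CD-HFD, and 6 MlklKO controls and 3 MlklKO on CD-HFD. WT mice carry both necroptosis genes intact, and no other allele or agent is given for any group. The control is chow, so choline content, fat content and the rest of the diet's makeup changed together and cannot be told apart. Strain, sex and time of day are not given in the sources used here.

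Choline is needed to make phosphatidylcholine, the main phospholipid of membranes and of the very-low-density lipoproteins that carry triglyceride out of the liver. A liver short of choline therefore retains fat, and with a high-fat diet this is a long-used model of steatohepatitis, in which fat-laden hepatocytes, inflammation, scar tissue and later tumours are seen. Hepatocytes hold most of the metabolism and secretion of the organ, Kupffer cells are its resident macrophages, stellate cells its main source of scar matrix, and cholangiocytes line its bile ducts. Necroptosis is a lytic form of cell death in which the kinase RIPK3 activates the membrane-rupturing protein MLKL.

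Total counts ran from 2476268 to 8087208 in the controls and from 5602516 to 11070338 on CD-HFD. Levels are given as CPM, counts scaled to library size and TMM factor, differences as log2 changes with their standard error (SE), and a gene is said to have risen or fallen where the adjusted p of edgeR's quasi-likelihood test (Benjamini-Hochberg over 14862 genes) was under 0.05. By that rule 23.5% of all genes rose and 24.1% fell (3496 and 3586 genes), with a median log2 change of -0.07 across the genes tested. With library sizes alone in place of TMM the median was 0.43 and the split was 6799 higher and 1021 lower, so every direction here is relative to the bulk of genes. CD-HFD libraries detected more genes (21296 ± 683 against 17566 ± 1207, SD, n = 6, two-sided exact permutation p = 0.00216, the smallest possible, adjusted p = 0.00541 over 5 library measures). A gene with any read counted as detected, with no correction for depth, and total counts ranged higher on CD-HFD. The part of depth in this difference was not tested. In the ratio of the clock genes Arntl to Dbp, 4 of 6 controls and 1 of 6 CD-HFD libraries stood on the high side, where 11 of all 44 libraries lay. The cut was the widest gap of the ordered ratios with at least 5 libraries a side, 0.866 log2 against 0.719 for the next. The high controls lay at 0.10 to 2.50 and the high CD-HFD library at -2.06, so the sides are not clearly separate. Clock phase means the side of this cut. With clock phase as a covariate 3492 genes rose and 3040 fell. WT control replicates 5 and 6 held the most mitochondrially encoded counts (7.62% and 13.4%), and without them 4173 genes rose and 3963 fell. The Y-linked gene Ddx3y was counted in all 12 libraries, from 70.3 to 82.9 CPM with a median of 78.3 in the controls and from 29.5 to 43.3 CPM with a median of 35.5 on CD-HFD, a fall with no overlap (log2 change -1.1 ± 0.12, adjusted p = 1.62e-09). A call said below to be lost in N fits was not made in N of the 26 alternative fits run on this comparison. Counts of members are to be read against the shares of all genes given here.

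The marker lists placed the tissue as liver, and genes of lipid-laden macrophages rose steeply. Lipid-associated macrophages are scavenger cells that gather around fat-laden and dying cells, and 9 of their 10 markers rose, with a median log2 change of 4.27. Gpnmb, a membrane glycoprotein of lipid-laden macrophages, lay from 0 to 1.82 CPM with a median of 0.414 in the controls and from 208 to 664 CPM with a median of 276 on CD-HFD (log2 change 9.77 ± 0.47, adjusted p = 2.83e-20). Trem2, the lipid-sensing receptor that defines these cells, lay from 0.456 to 1.53 CPM with a median of 0.616 in the controls and from 54.4 to 99.2 CPM with a median of 74.2 on CD-HFD (log2 change 6.73 ± 0.33, adjusted p = 6.59e-20). In both genes the 6 CD-HFD libraries were all far above the 6 controls, with no overlap. Lgals3, which encodes galectin-3, rose from a median of 3.47 to 313 CPM (log2 change 6.4 ± 0.29), and Mmp12, the macrophage elastase, from 0.138 to 183 CPM (log2 change 9.92 ± 0.41). Ctsd, the lysosomal protease with the highest mean CPM of the list, rose by less, from 211 to 636 CPM (log2 change 1.6 ± 0.15). Summed over the list, the markers held 296 to 528 CPM in the controls and 2292 to 4179 CPM on CD-HFD.

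Markers of resident Kupffer cells moved the other way. Of 9 tested, 6 fell and 0 rose (median -1.03). Clec4f, the lectin found on mouse Kupffer cells, lay from 59 to 113 CPM with a median of 74.8 in the controls and from 9.69 to 49.1 CPM with a median of 18.1 on CD-HFD (log2 change -1.68 ± 0.44, adjusted p = 0.00154). The highest CD-HFD library was below the lowest control. Picked after their values were seen, the scavenger receptor Cd163 fell from a median of 10.4 to 0.175 CPM (log2 change -5.83 ± 0.65) and the phosphatidylserine receptor Timd4 from 3.9 to 0.176 CPM (-4.6 ± 0.59), both with no overlap (6.63% of all genes lay lower without overlap). The CD-HFD libraries held only 9 counts of Cd163 and 10 of Timd4 together, so the sizes of these falls are fitted values. Marco, another scavenger receptor of these cells, also fell (-2.33), but 1 library in each group stood well above the rest, at 34.6 CPM in a control and 6.19 CPM on CD-HFD. C6, a complement gene that hepatocytes also express, had the highest mean CPM of the list and fell from 372 to 162 CPM. In whole tissue, fewer cells of a type and less RNA per cell cannot be told apart. In the 5 CD-HFD and 2 control libraries of the more common clock phase the fall of Clec4f was -1.35 with an adjusted p of 0.0648, and that of Marco -1.62 with an adjusted p of 0.0945.

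Monocyte and dendritic-cell markers all rose where they were tested. All 9 tested monocyte markers rose (median 3.43, 1 of the 10 listed was under the count filter). Itgam, the CD11b integrin, lay from 0 to 0.921 CPM with a median of 0.329 in the controls and from 12 to 17.5 CPM with a median of 13.9 on CD-HFD (log2 change 5.19 ± 0.39, adjusted p = 4.66e-14), and Cx3cr1, the fractalkine receptor, rose by 5.53 ± 0.46. Lyz2, the lysozyme with the highest mean CPM of the list, rose from a median of 34 to 573 CPM. The groups did not overlap in any of these 3 genes. All 10 markers of dendritic cells and MHC class II rose (median 2.68). Itgax, the CD11c integrin, went from a median of 1.01 to 44 CPM, H2-Eb1, a class II chain, from 18.8 to 151 CPM, and Cd74, the invariant chain, from 53.1 to 274 CPM.

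T and NK cell genes were low in every control liver. Of 13 tested, 12 rose (median 3.72). The other, Cd4, the T-helper coreceptor, lay from 0.976 to 4.1 CPM with a median of 2.52 in the controls and from 1.3 to 4.5 CPM with a median of 1.89 on CD-HFD (log2 change -0.12 ± 0.42, adjusted p = 0.833), named after its value was seen and the one member with a mean log2 CPM of at least 1. The list's summed level was 2.68 to 6.84 CPM in the controls and 18.7 to 43.5 CPM on CD-HFD. Cd8a, the CD8 coreceptor of cytotoxic T cells, lay from 0 to 0.614 CPM with a median of 0.366 in the controls and from 3.46 to 8.12 CPM with a median of 4.61 on CD-HFD (log2 change 4.27 ± 0.69, adjusted p = 2.18e-06). Every CD-HFD library was above every control, on 7 control counts in all, so the sum and not the fold is the firmer value. Of 10 neutrophil genes 5 were too low to test, and of the 5 tested 3 rose, namely Csf3r, the G-CSF receptor, and, picked after their values were seen, S100a8 and the chemokine receptor Cxcr2, the first 2 by 2.29 and 1.5. The call of S100a8 was lost in 5 fits, 3 of which left out 1 library. Cxcr2 had 2 control counts, and its ratio of CD-HFD to control was 16.4 with a 95% exact interval of 4.38 to 139 for counting error only. B and plasma cell genes gave 1 riser of 8, Cd79b of the B-cell receptor (1.05, adjusted p = 0.0437, picked after its value was seen). That call was lost in 13 fits, and with library sizes alone 3 of the list rose. Ighm, the heavy chain with the highest mean CPM there, lay from 20.5 to 63.2 CPM with a median of 47.5 in the controls and from 9.4 to 69.8 CPM with a median of 18.2 on CD-HFD, with overlapping groups (adjusted p = 0.141).

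Duct, stellate and vascular markers each had their own pattern. All 10 tested cholangiocyte markers rose (median 3.31). Epcam, an adhesion molecule of duct and progenitor cells, lay from 0.732 to 2.76 CPM with a median of 1.66 in the controls and from 24.3 to 45.9 CPM with a median of 34.7 on CD-HFD (log2 change 4.26 ± 0.52, adjusted p = 6.93e-09). Spp1, osteopontin, which ducts and macrophages both make, rose from a median of 39.5 to 765 CPM (4.33 ± 0.36). Neither gene's groups overlapped. Stellate and myofibroblast markers rose in 8 of 11, led by Col1a1 and by Lum, a collagen-binding proteoglycan (3.63 ± 0.40), and Dcn, the decorin gene with the highest mean CPM of the list, went from 133 to 355 CPM. Endothelial markers were split, with 8 of 12 lower and 2 higher (median -0.80, and 4 lower and 4 higher with library sizes alone). Kdr, the VEGF receptor, lay from 31.9 to 49.8 CPM with a median of 43.3 in the controls and from 7.42 to 14.1 CPM with a median of 9.05 on CD-HFD (log2 change -2.05 ± 0.22, adjusted p = 5.93e-10). Cdh5, the cadherin of endothelial junctions, fell (-1.35 ± 0.25), while Cd34 rose by 3.42 ± 0.46 and Plvap, which forms the diaphragms of capillary pores, by 0.75 ± 0.21. The rise of Plvap had an adjusted p of 0.0663 within the more common clock phase.

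**Figure D1:**
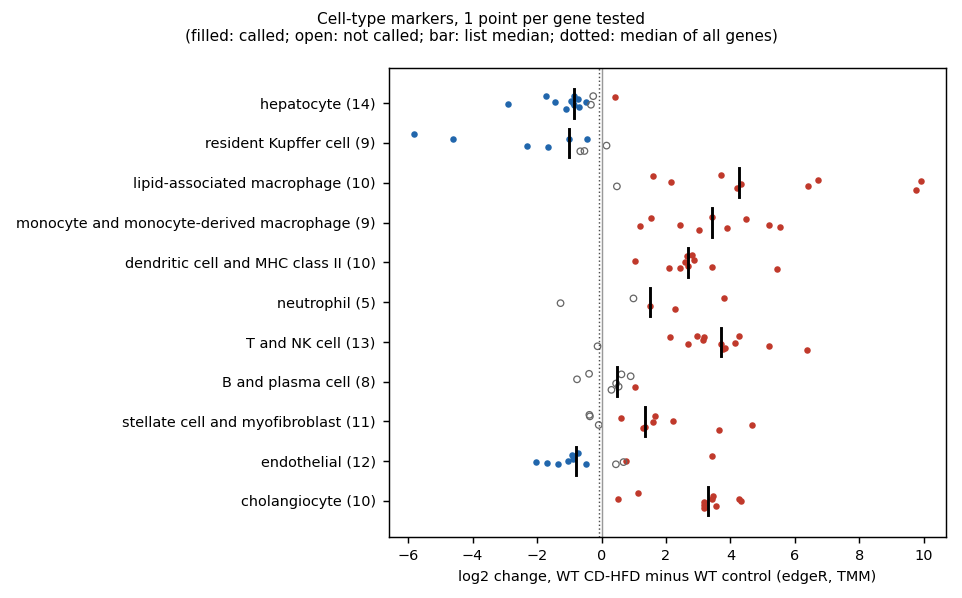
Log2 change from control to CD-HFD (x axis) of each tested marker gene, by cell-type list (y axis, genes tested in brackets), where filled points passed the test and bars mark list medians. Most macrophage, monocyte, dendritic, T-cell and duct markers lie right of 0, while most hepatocyte, Kupffer and endothelial markers lie left of it, and the endothelial split is 4 and 4 with library sizes alone.

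Scar matrix genes rose together. Of 15 collagen genes 14 rose (median 1.71). Col1a1, a chain of the main scar collagen, lay from 2.73 to 13.6 CPM with a median of 7.51 in the controls and from 102 to 296 CPM with a median of 207 on CD-HFD (log2 change 4.67 ± 0.36, adjusted p = 6.46e-14), and Col1a2, its partner chain, rose by 3.79 ± 0.30. Both rose in all 6 libraries, with no overlap. The exception was Col18a1, which hepatocytes express and which had the highest mean CPM of the list, with a fall from a median of 1039 to 648 CPM (-0.83 ± 0.18, adjusted p = 0.0871 with library sizes alone). Among matrix glycoproteins and crosslinking enzymes 15 of 18 rose (median 2.39). Tnc, the wound-matrix protein tenascin C, rose by 3.72 ± 0.41 and Thbs1, the TGF-beta-activating thrombospondin, by 3.34 ± 0.64. Vtn, the liver-made plasma protein vitronectin, fell (-0.42 ± 0.14), a fall that turns positive with library sizes alone and was lost in 8 fits. Fbn2, a fibrillin of elastic fibres, was among the 12 largest rises of all genes that passed the naming rule (6.16 ± 0.85). Timp1, the inhibitor of matrix metalloproteinases, was picked after its values were seen. It had no count in any control and lay from 9.65 to 23.2 CPM with a median of 11.4 on CD-HFD, at least 116-fold higher when the controls are set at 3 counts over the group.

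TGF-beta drives stellate cells to make matrix, and PDGF drives them to divide. In that list 12 of 17 rose and 0 fell (median 1.55). Ltbp2, which binds into fibrillin matrix, rose from a median of 1.3 to 23 CPM (3.93 ± 0.45). The CD-HFD libraries were all above the controls.

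Matrix metalloproteinases cut matrix and free bound growth factors. Of the 11 listed 8 were tested, 7 rose and 1, Mmp19, fell (-1.22, picked after its value was seen, and adjusted p = 0.07 with library sizes alone). Mmp7, matrilysin of injured epithelium, lay from 0 to 0.340 CPM with a median of 0 in the controls and from 19.2 to 34.3 CPM with a median of 25.2 on CD-HFD. Its control libraries held 3 counts in all, and the ratio of CD-HFD to control was 234 with a 95% exact interval of 79.9 to 1140 for counting error only. Several of these genes are textbook targets of the factor AP-1, whose site reads TGACTCA. Those letters, on either strand in the 250 bases before the start, stood in 3 of the 8 listed genes that the RefSeq promoter table holds (37.5%) and in 5.16% of all 27025 genes there. The 3 were Mmp7, Mmp12 and Mmp13, and all 3 rose. Their windows are shown because these are the genes of the list with the letters, from RefSeq on GRCm38.p6, 5′ to 3′ along the gene with the match in capitals and up to 30 bases on each side.
Mmp7 (chr9:7691997-7692063, plus strand): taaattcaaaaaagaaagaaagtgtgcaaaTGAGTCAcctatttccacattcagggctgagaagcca
Mmp12 (chr9:7347300-7347366, plus strand): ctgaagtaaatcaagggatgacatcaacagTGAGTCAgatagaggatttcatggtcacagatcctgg
Mmp13 (chr9:7272449-7272513, plus strand): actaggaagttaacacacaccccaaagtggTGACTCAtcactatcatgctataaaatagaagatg
The matches begin 63, 44 and 35 bases before the start. Mmp13, a collagenase, was low throughout, from 0 to 0.732 CPM with a median of 0 in the controls and from 1.13 to 2.51 CPM with a median of 1.8 on CD-HFD (log2 change 3.44 ± 0.67, adjusted p = 4.07e-05), with no overlap. A match is a description of letters and shows no binding, and of the 5 listed genes without it 3 also rose.

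Chemokines draw leukocytes into tissue. In the list of ligands and receptors 22 of 25 rose and 1 fell (median 3.07). Among the risers were the receptors Cx3cr1, given above, and Cxcr4, the receptor of CXCL12. Cxcr4 lay from 0 to 0.976 CPM with a median of 0.616 in the controls and from 9.81 to 19.3 CPM with a median of 11.4 on CD-HFD (log2 change 4.48 ± 0.37, adjusted p = 5.71e-13). The groups were fully apart. Cxcl13, the chemokine that guides B cells, fell (-2.88 ± 0.67) on 35 control and 10 CD-HFD counts. It was picked after its values were seen, and its fall had an adjusted p of 0.0714 with clock phase as a covariate and 0.782 within the more common phase.

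NF-kappaB is the main transcription factor of TNF and Toll-like receptor signalling. In its list 10 of 17 rose and 1 fell (median 0.64). Relb, a subunit of the slower noncanonical pathway, lay from 0.921 to 5.86 CPM with a median of 2.9 in the controls and from 17 to 29.4 CPM with a median of 22.6 on CD-HFD (log2 change 2.88 ± 0.33, adjusted p = 2.35e-09), and Ltb, the lymphotoxin that feeds that pathway, rose by 3.35 ± 0.41. Nfkbia, the inhibitor with the highest mean CPM of the list, lay from 45.6 to 129 CPM with a median of 61.6 in the controls and from 79.6 to 111 CPM with a median of 97.9 on CD-HFD, with overlap (adjusted p = 0.0771). Il1b, interleukin 1 beta, fell (-1.35 ± 0.40) and was picked after its value was seen. With clock phase as a covariate its change was -0.73 (adjusted p = 0.276), and within the more common phase 0.07. Of the Toll-like receptor genes 11 of 16 rose and 2 fell. Cd14, the lipopolysaccharide coreceptor, rose from a median of 1.22 to 23.7 CPM (3.88 ± 0.38) and Tlr13, a bacterial RNA sensor, from 0.562 to 12.2 CPM (4.24 ± 0.32). Tlr5, the flagellin receptor, fell (-1.51 ± 0.33), as did the adaptor Tirap (-0.80 ± 0.16), which changed by -0.32 with library sizes alone (adjusted p = 0.0786), when 14 of the list rose and 1 fell.

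Interferon-stimulated genes form the antiviral programme that type I interferon switches on, and several also answer interferon gamma. Of 20 listed and tested, 17 rose and 0 fell (median 2.21), and 19 rose with library sizes alone and 20 without control replicates 5 and 6. In 14 the groups did not overlap (14.3% of all genes lay higher without overlap). Oas1a, a sensor of double-stranded RNA, lay from 1.52 to 3.19 CPM with a median of 2.08 in the controls and from 18.6 to 33.5 CPM with a median of 25.7 on CD-HFD (log2 change 3.61 ± 0.33, adjusted p = 5.31e-12). Ifi44 rose by 3.55 ± 0.42, whereas Bst2, the tetherin with the highest mean CPM of the list, lay from 128 to 199 CPM with a median of 148 in the controls and from 139 to 261 CPM with a median of 178 on CD-HFD (adjusted p = 0.0697). Ubd, a ubiquitin-like modifier that interferon gamma and TNF induce, stood outside the list among the 12 largest rises of all and went from a median of 0.244 to 87.6 CPM (7.65 ± 0.50), with no overlap.

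The element that the interferon factor ISGF3 binds has GAAA repeated after 2 bases of any kind at its core. That pair, on either strand in the 250 bases before the start, were found in 9 of the 15 listed genes that the promoter table holds (60.0%), and in 3.46% of all genes there. Of the 9, 7 rose, and Bst2 and Stat2 did not pass the test, although both did without control replicates 5 and 6. Of the 6 without the letters, 5 rose. No match overlapped one of the other motifs searched. The windows below are from RefSeq on GRCm38.p6, 5′ to 3′ along the gene with the letters in capitals wherever they match, and they show 4 risers and Stat2, which holds it and did not pass. These genes were picked after their values were seen, except Oas1a.
Isg15 (chr4:156200845-156200914, minus strand): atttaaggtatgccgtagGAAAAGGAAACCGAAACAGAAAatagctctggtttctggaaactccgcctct
Ifit1 (chr19:34640774-34640843, plus strand): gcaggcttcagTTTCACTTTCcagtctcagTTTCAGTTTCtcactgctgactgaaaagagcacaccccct
Ifit3 (chr19:34583377-34583446, plus strand): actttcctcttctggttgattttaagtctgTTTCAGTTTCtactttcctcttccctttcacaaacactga
Oas1a (chr5:120907526-120907569, minus strand): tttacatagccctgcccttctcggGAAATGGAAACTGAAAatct
Stat2 (chr10:128270248-128270315, plus strand): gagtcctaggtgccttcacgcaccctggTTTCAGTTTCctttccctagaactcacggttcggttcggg
Isg15 holds 3 matches, which run into each other, Ifit1 2, Oas1a 2 that overlap, Ifit3 2, of which 1 lies outside the stretch shown, and Stat2 1. Those nearest the start begin 66, 85, 122, 14 and 222 bases before it. Isg15, a ubiquitin-like protein, lay from 4.15 to 17.3 CPM with a median of 5.89 in the controls and from 24.9 to 92.6 CPM with a median of 48.6 on CD-HFD (log2 change 2.71 ± 0.36, adjusted p = 5.67e-08). Ifit1 and Ifit3, which bind viral RNA, rose by 2.52 ± 0.35 and 2.38 ± 0.31. These 3 genes had fully separate groups. Stat2, a subunit of ISGF3, lay from 74.6 to 248 CPM with a median of 89.4 in the controls and from 93 to 158 CPM with a median of 136 on CD-HFD (log2 change -0.07 ± 0.23, adjusted p = 0.826). Without control replicates 5 and 6 its change was 0.63 (adjusted p = 0.00503), and within the more common clock phase 0.73 (adjusted p = 0.0166).

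Acute-phase proteins are secreted by hepatocytes under inflammatory cytokines. In that list 11 of 18 rose and 5 fell (median 0.79). Lcn2, the iron-binding lipocalin, lay from 0.456 to 6.59 CPM with a median of 1.93 in the controls and from 304 to 592 CPM with a median of 359 on CD-HFD (log2 change 7.38 ± 0.89, adjusted p = 6.82e-09). Orm2, an orosomucoid, lay from 2.15 to 18.7 CPM with a median of 8.07 in the controls and from 160.1 to 283 CPM with a median of 190.3 on CD-HFD (log2 change 4.39 ± 0.76, adjusted p = 6.53e-06). Both were high in all 6 CD-HFD livers. Saa1 and Saa2, near-identical serum amyloid genes that can share reads, rose by 2.64 ± 0.67 and 2.82 ± 0.79, the first with an adjusted p of 0.0536 within the more common clock phase. Hpx, the haem carrier with the highest mean CPM of the list, rose by 0.93 ± 0.26 (adjusted p = 0.0774 within that phase). The 5 that fell, named after their values were seen, were the fibrinogen chains Fga (-1.04), Fgb (-0.88) and Fgg (-0.86), the pentraxin Crp (-0.75) and the inhibitor chain Itih4 (-0.77). The calls of Fga, Fgb, Fgg, Crp and Itih4 were lost in 9, 3, 4, 5 and 10 fits. With library sizes alone none of the list fell and 12 rose.

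Clotting factors, which hepatocytes also secrete, were lower, and complement genes went both ways. Of 17 coagulation genes 16 fell and none rose (median -0.76, and 5 fell with library sizes alone). Klkb1, plasma kallikrein, fell (-1.13 ± 0.17), as did F7, the starter of the tissue-factor pathway (-1.1 ± 0.16). Kng1, the kininogen with the highest mean CPM there, fell (-0.57 ± 0.15, but -0.10 with an adjusted p of 0.545 with library sizes alone). In the complement list 13 of 23 fell and 5 rose (median -0.44, but 0.06 with library sizes alone, when 5 fell and 7 rose). Mbl2, a mannose-binding lectin, lay from 180.1 to 564 CPM with a median of 347 in the controls and from 35.6 to 69.8 CPM with a median of 47.7 on CD-HFD (log2 change -2.88 ± 0.23, adjusted p = 2.55e-13), every CD-HFD library below every control. The 5 risers were the anaphylatoxin receptors of leukocytes, C3ar1 (3.72) and C5ar1 (4.14), and the macrophage-made chains C1qa (2.12), C1qb (2.52) and C1qc (2.03), the last 3 named after their values were seen.

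The study was built around necroptosis. Of 20 genes of necroptosis and apoptosis 8 rose and 1 fell (median 0.32, and 14 rose with library sizes alone), a share of risers of 40.0% against 23.5% of all genes. Mlkl lay from 2.28 to 6.14 CPM with a median of 5.37 in the controls and from 14.3 to 17.6 CPM with a median of 16.4 on CD-HFD (log2 change 1.69 ± 0.24, adjusted p = 2.66e-07). Zbp1, a nucleic-acid sensor that can engage RIPK3 and that interferon induces, lay from 1.53 to 6.62 CPM with a median of 4.6 in the controls and from 27.2 to 54 CPM with a median of 33.6 on CD-HFD (log2 change 2.95 ± 0.30, adjusted p = 1.7e-10). In both the CD-HFD libraries were all above the controls. Ripk3 was low, from 0.510 to 4.88 CPM with a median of 1.26 in the controls and from 2.33 to 4.43 CPM with a median of 2.6 on CD-HFD, and its groups overlapped (log2 change 0.71 ± 0.44, adjusted p = 0.185). Bcl2, the survival protein, rose by 1.97 ± 0.33. Of the inflammasome and pyroptosis genes 9 of 14 rose and 2 fell (11 and 0 with library sizes alone). Pycard, the inflammasome adaptor ASC, rose by 3.46 ± 0.39 and Casp4, the sensor of intracellular lipopolysaccharide, by 2.74 ± 0.37. The fallers were Il1b, given above, and Il18 (-0.43, named after its value was seen, a call lost in 18 fits and positive with library sizes alone). Zbp1, Mlkl, Pycard and Casp4 are expressed by leukocytes as well as by liver cells, and the part of the leukocyte markers' rise in these changes was not tested.

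**Figure D2:**
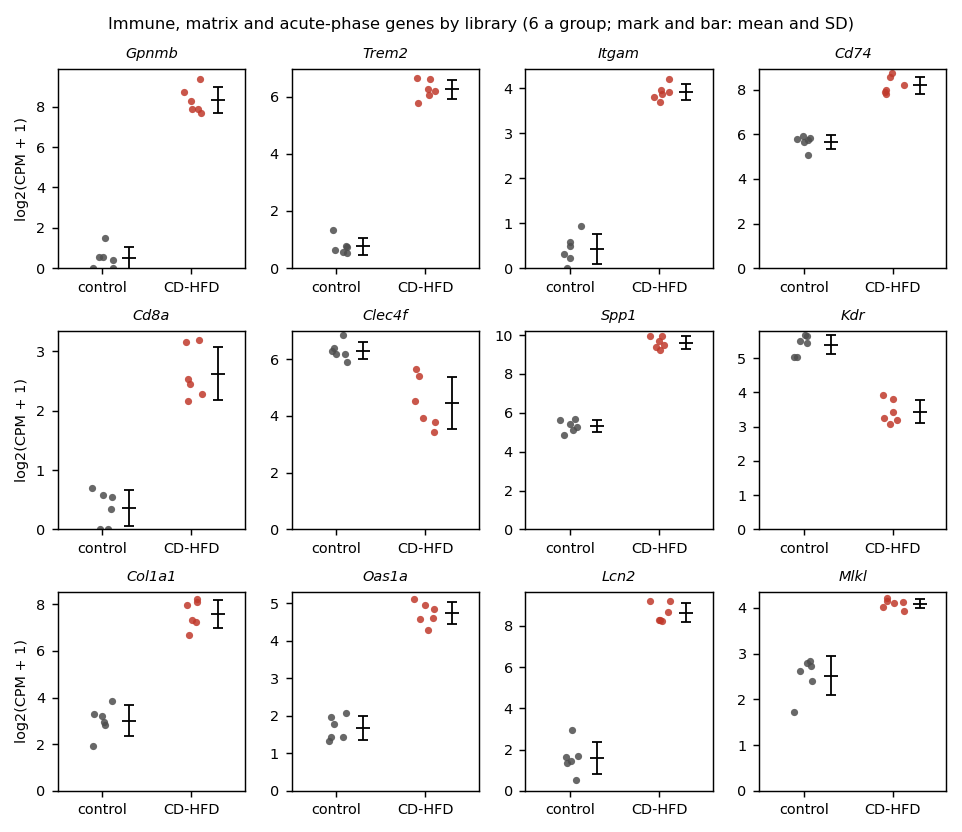
Level of 12 genes in each library as log2(CPM + 1) (y axis), in 6 control and 6 CD-HFD livers (x axis), with mean and SD beside the points. The groups do not overlap in any panel, and Clec4f and Kdr are the panels in which the CD-HFD livers lie lower.

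Stress genes did not move as a block. In the list of the unfolded protein and integrated stress responses 6 of 20 rose and 4 fell (median -0.02, but 0.05 with RLE size factors and 0.48 with library sizes alone, when 9 rose and none fell). Fgf21, the fasting and stress hormone of the liver, lay from 0 to 2.68 CPM with a median of 1.01 in the controls and from 15.6 to 78.5 CPM with a median of 53.5 on CD-HFD (log2 change 5.27 ± 0.51, adjusted p = 3.43e-11). Atf3, an early stress transcription factor, lay from 2.48 to 6.38 CPM with a median of 3.9 in the controls and from 33 to 65.9 CPM with a median of 41.4 on CD-HFD (log2 change 3.45 ± 0.39, adjusted p = 1.08e-09). Neither gene's groups overlapped. The endoplasmic reticulum chaperone Hspa5, with the highest mean CPM, lay from 430.2 to 1396 CPM with a median of 1044 in the controls and from 526 to 1241 CPM with a median of 798 on CD-HFD (adjusted p = 0.395). The 4 fallers, named after their values were seen, were the chaperone Hsp90b1 (-0.47, slightly positive with library sizes alone), the sensor Atf6 (-0.56), Edem1 of misfolded-protein disposal (-0.79) and the oxidase Ero1lb (-0.73). The calls of Hsp90b1, Atf6, Edem1 and Ero1lb were lost in 17, 16, 2 and 2 fits.

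ATF4 and CHOP, the factors of the integrated stress response, bind composite sites that read TGATGCAA. Those letters were found, on either strand in the 250 bases before the start, in 4 of the 18 listed genes that the promoter table holds (22.2%) and in 0.918% of all genes there. The 4 were Fgf21, Atf3, Chac1 and Herpud1, of which the first 3 rose, and of the 14 without the letters 3 rose. The windows follow, from RefSeq on GRCm38.p6, 5′ to 3′ along the gene with the match in capitals.
Fgf21 (chr7:45615592-45615659, minus strand): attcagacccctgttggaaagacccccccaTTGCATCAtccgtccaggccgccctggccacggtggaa
Atf3 (chr1:191183406-191183473, minus strand): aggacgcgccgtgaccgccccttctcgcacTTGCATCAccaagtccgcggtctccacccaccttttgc
Chac1 (chr2:119351019-119351086, plus strand): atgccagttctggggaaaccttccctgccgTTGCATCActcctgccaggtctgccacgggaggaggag
Herpud1 (chr8:94386287-94386354, plus strand): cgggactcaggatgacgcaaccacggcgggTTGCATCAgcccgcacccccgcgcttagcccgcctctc
The matches begin 139, 110, 193 and 112 bases before the start. Chac1, which degrades glutathione, lay from 0 to 3.57 CPM with a median of 1.61 in the controls and from 3.46 to 38.2 CPM with a median of 9.8 on CD-HFD (log2 change 2.95 ± 0.51, adjusted p = 8.07e-06), and its groups overlapped slightly. Herpud1, of the disposal of misfolded proteins, lay from 137 to 702 CPM with a median of 307 in the controls and from 242 to 481 CPM with a median of 357 on CD-HFD (adjusted p = 0.909). Both were chosen after their values were seen.

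Among NRF2 antioxidant targets 10 of 20 rose and 3 fell (median 0.49, and 12 rose and 1 fell with library sizes alone). Cbr3, a carbonyl reductase, rose from a median of 0.917 to 9.8 CPM (3.15 ± 0.43). Slc7a11, the cystine importer, was picked after its values were seen. It had no count in any control and lay from 2.27 to 5.96 CPM with a median of 3.51 on CD-HFD, at least 35.1-fold higher with the controls at 3 counts over the group. The fallers were Me1, malic enzyme, which is also a lipogenic gene (-3.99 ± 0.50), and the subunits of the glutathione-making ligase Gclc (-0.79) and Gclm (-0.41, positive with library sizes alone), the latter pair named after their values were seen. Their calls were lost in 5 and 4 fits, and Gclc changed by -0.33 with clock phase as a covariate (adjusted p = 0.365). Of p53 targets 7 of 18 rose and 1, Ei24, fell (-0.37, positive with library sizes alone, a call lost in 9 fits). Of that list 16 rose and none fell with library sizes alone. Cdkn1a, the cell-cycle brake p21, lay from 1.46 to 9.52 CPM with a median of 6.13 in the controls and from 17.8 to 36.9 CPM with a median of 26.3 on CD-HFD (log2 change 2.17 ± 0.39, adjusted p = 1.2e-05), and Phlda3 rose by 3.39 ± 0.33. Immediate early genes rose in 11 of 13, among them Klf6 (2.63 ± 0.36), and Ier2 fell (-0.51, named after its value was seen, a call lost in 18 fits). Heat shock chaperones gave 2 risers and 2 fallers of 15 (median -0.03, and 5 rose and none fell with library sizes alone), Cryab, a small heat shock protein of injured tissue, being one riser (2.61 ± 0.31). Named after their values were seen, the other was Hspa1a (2.12) and the fallers were Hsp90ab1 (-0.45) and Hspd1 (-0.68), whose calls were lost in 6 and 4 fits, Hsp90ab1 turning slightly positive with library sizes alone. Among metallothionein, zinc and iron genes 3 of 18 rose and 6 fell (median -0.28, but 0.23 with library sizes alone, when 7 rose and 4 fell). The risers were Mt1 and, named after their values were seen, the zinc importer Slc39a4 (1.06) and the ferritin chain Fth1 (0.41, a call lost in 2 fits). Mt1, a zinc-binding metallothionein, lay from 5.83 to 18.7 CPM with a median of 11.2 in the controls and from 42.8 to 236 CPM with a median of 79.7 on CD-HFD (log2 change 3.19 ± 0.65, adjusted p = 9.43e-05), while Slc30a10, a manganese exporter, fell from a median of 67.2 to 2.44 CPM (-4.07 ± 0.34).

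Cell-cycle genes were higher from a low base. Of 25 tested 20 rose and 1 fell (median 1.68). Mki67, the proliferation antigen, lay from 1.36 to 4.56 CPM with a median of 2.17 in the controls and from 13.5 to 34.5 CPM with a median of 21 on CD-HFD (log2 change 3.22 ± 0.32, adjusted p = 6.42e-11). Top2a, the topoisomerase of dividing cells, rose by 3.31 ± 0.32, and Ccnd1, cyclin D1, with the highest mean CPM of the list, went from a median of 12.3 to 63.4 CPM. The groups of all 3 were apart. The faller was Tk1, thymidine kinase (-1.2 ± 0.25). Which cells divided cannot be read from whole tissue.

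Of 25 oncofetal and liver tumour markers 21 were tested, 16 rose and 2 fell (median 2.32). Ly6d, a surface protein of stressed and tumour-prone hepatocytes, lay from 0.244 to 1.95 CPM with a median of 0.377 in the controls and from 58.7 to 120.2 CPM with a median of 94.6 on CD-HFD (log2 change 7.15 ± 0.66, adjusted p = 1.09e-11). H19, an imprinted fetal RNA, lay from 4.06 to 89.4 CPM with a median of 9.2 on CD-HFD, where replicates 3 and 4 stood at 89.4 and 30.8 CPM and the other 4 at 9.85 CPM or less. Its controls held 2 counts, and the ratio was 331 with a 95% exact interval of 91.5 to 2740 for counting error only. Anxa2, an annexin of ducts, leukocytes and tumours, rose from a median of 12.8 to 175 CPM (3.73 ± 0.29). Glul, glutamine synthetase, a marker of beta-catenin-driven tumours and of pericentral hepatocytes with the highest mean CPM of the list, lay from 519 to 1225 CPM with a median of 920.4 in the controls and from 675 to 1046 CPM with a median of 899 on CD-HFD, with overlap (adjusted p = 0.745). Tff3 (-1.79, a call lost in 4 fits) and the imprinted gene Peg3 (-2.02) fell and were named after their values were seen. Within the more common clock phase Peg3 changed by -0.75 (adjusted p = 0.217). These are whole-liver values, and whether any of the livers held a tumour is not given in the sources used here.

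Growth factor receptors were split, with 6 of 16 genes of the EGF receptor, HGF and FGF list higher and 5 lower, but 10 higher and 2 lower with library sizes alone. Egfr, high in resting hepatocytes, fell from a median of 477 to 239.6 CPM (-1.25 ± 0.28), while its relative Erbb2 rose from 1.76 to 5.63 CPM (1.59 ± 0.34). The other fallers were Klb, the FGF21 and FGF15 coreceptor (-1.94), and, named after their values were seen, Erbb3 (-0.50), the HGF receptor Met (-0.74) and Fgfr4 (-0.46), of which Erbb3 and Fgfr4 turn slightly positive with library sizes alone and lost their calls in 17 and 9 fits, and Met in 2. Areg, the ligand amphiregulin, was also picked after its values were seen. It had no count in the controls and lay from 0.540 to 4.12 CPM with a median of 1.17 on CD-HFD, at least 15.2-fold higher with the controls at 3 counts over the group. Ghr, the growth hormone receptor, fell (-1.39 ± 0.18), and Igfbp7, a matrix-bound IGF-binding protein, rose by 2.24 ± 0.23.

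Hepatocyte genes fell as a group. Of 14 hepatocyte markers 11 fell and 1, the fetuin gene Ahsg, rose (0.40, a call lost in 8 fits), with a median of -0.86. Only 5 fell with library sizes alone, with a median of -0.37. Alb, albumin, lay from 51716 to 118232 CPM with a median of 85161 in the controls and from 39198 to 63386 CPM with a median of 43706 on CD-HFD (log2 change -0.86 ± 0.20, adjusted p = 0.000335), with some overlap. Serpina1c, an alpha-1-antitrypsin gene with near-identical neighbours, fell (-1.44 ± 0.20). The median hepatocyte marker fell by 0.86, and the metabolic results below are to be read beside that value, since its part in them was not tested. Of 27 liver transcription factors and nuclear receptors 12 fell and 5 rose (median -0.49, but 0.01 with library sizes alone, when 1 fell and 7 rose). Hnf4a, the master factor of hepatocyte identity, fell (-0.69 ± 0.19) (adjusted p = 0.364 with library sizes alone). Hnf4aos, a transcript opposite Hnf4a, fell from a median of 10.2 to 0.364 CPM (-4.75 ± 0.48), and as the strand setting of the counting is not given in the sources used here, reads of this pair may not be cleanly split. Among the 5 risers were the inflammatory factor Cebpd (2.05) and Tead1 of the Hippo pathway (1.33), and, named after their values were seen, Cebpb (0.51, a call lost in 5 fits) and the duct factor Sox9 (1.13).

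De novo lipogenesis, the making of fatty acids from sugar, fell steeply. Of 23 genes 16 fell and 1 rose (median -1.46, with 14 lower on library sizes alone). Scd1, the desaturase that makes oleate, lay from 3240.1 to 18636 CPM with a median of 10052 in the controls and from 165 to 746 CPM with a median of 237 on CD-HFD (log2 change -5.01 ± 0.51, adjusted p = 1.18e-10). Elovl3, a fatty acid elongase, lay from 78.5 to 657 CPM with a median of 422 in the controls and from 3.38 to 14.5 CPM with a median of 4.29 on CD-HFD (log2 change -5.82 ± 0.57, adjusted p = 3.86e-11). Fasn, fatty acid synthase, picked after its values were seen, fell from a median of 1473 to 178 CPM (-2.92 ± 0.34). In all 3 genes the highest CD-HFD liver stayed below the lowest control, although the controls themselves were widely spread. The riser was Scd2, the desaturase of non-parenchymal cells (1.52 ± 0.28). Angptl8, a hormone that feeding and lipogenic factors induce in the liver, fell (-3.46 ± 0.46).

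Genes of fat uptake and storage did not follow the lipogenic ones. In the lipid droplet and uptake list 8 of 24 rose and 7 fell (median 0.22). With library sizes alone 14 rose and 2 fell (median 0.72), while the median was -0.20 within the more common clock phase and -0.02 without control replicates 5 and 6. Cd36, the fatty acid transporter, lay from 14.6 to 45.1 CPM with a median of 27.9 in the controls and from 109.7 to 279.9 CPM with a median of 156 on CD-HFD (log2 change 2.6 ± 0.26, adjusted p = 8.98e-11). Lpl, the lipase that frees fatty acids from circulating triglyceride and which macrophages also make, lay from 19.3 to 45.1 CPM with a median of 32.5 in the controls and from 309 to 563 CPM with a median of 408 on CD-HFD (log2 change 3.7 ± 0.26, adjusted p = 6.19e-15). Both were higher in every CD-HFD liver. Cidec, which enlarges lipid droplets, was picked after its values were seen and rose from a median of 7.76 to 48.8 CPM (2.59 ± 0.39). Fabp1, the abundant fatty acid binding protein of hepatocytes, fell (-1.12 ± 0.27) (adjusted p = 0.143 within the more common clock phase).

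Fatty acid oxidation genes, which PPAR-alpha switches on, fell more often than they rose with TMM scaling. Of 33 tested 16 fell and 4 rose (median -0.53, and with library sizes alone 6 fell and 9 rose). Acaa1b, a peroxisomal thiolase, fell (-1.4 ± 0.28). The 4 risers were the omega-hydroxylases Cyp4a31 (3.02 ± 0.50) and Cyp4a14 (1.87 ± 0.75) and, named after their values were seen, the thioesterase Acot2 (1.57) and the pantetheinase Vnn1 (1.32). The call of Cyp4a14 was lost in 11 fits, with an adjusted p of 0.19 for clock phase as a covariate and 0.0686 without control replicates 5 and 6. Cyp4a12a, the male-biased member of the Cyp4a cluster, fell (-2.28 ± 0.28), and reads of these close relatives may be shared.

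Lipoprotein genes fell with few exceptions. Of 24 apolipoprotein and VLDL assembly genes 19 fell and 2 rose (median -0.87, and 10 fell with library sizes alone). Apoa4, the apolipoprotein that rises with liver fat, lay from 30.3 to 84.1 CPM with a median of 41.6 in the controls and from 133 to 575 CPM with a median of 466 on CD-HFD (log2 change 3.17 ± 0.30, adjusted p = 1.83e-11). Its CD-HFD replicate 3 stood at 132.8 CPM, the other 5 at 408 CPM or more. The other riser was Abcg1, a cholesterol exporter of macrophages (1.77). Pltp, the phospholipid transfer protein, fell (-1.95 ± 0.39). Apoe, with the highest mean CPM of the list, went from a median of 31440.4 to 22588 CPM (-0.55 ± 0.16), a change of -0.05 with library sizes alone (adjusted p = 0.778).

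Sterol genes were lower as well. Of 28 genes of cholesterol synthesis and sterol sensing 23 fell and 1 rose (median -1.02, and 11 fell with library sizes alone). Tm7sf2, a sterol reductase, lay from 113 to 255 CPM with a median of 201 in the controls and from 38.5 to 49.8 CPM with a median of 47.7 on CD-HFD (log2 change -2.04 ± 0.18, adjusted p = 2.36e-12), and Pmvk, of the mevalonate pathway, fell (-1.96 ± 0.25). The riser was Soat1, which esterifies cholesterol in macrophages (2.84 ± 0.31). Of 29 genes of bile acid synthesis and transport 21 fell and 3 rose (median -1.0). Slco1a1, a male-biased uptake transporter, lay from 229.8 to 529 CPM with a median of 411 in the controls and from 7.56 to 58.8 CPM with a median of 16.6 on CD-HFD (log2 change -4.12 ± 0.40, adjusted p = 4.07e-11). Cyp7b1, of the alternative synthesis pathway, fell from a median of 255 to 34.8 CPM (-2.83 ± 0.31). Neither gene's groups overlapped. Cyp7a1, the rate-limiting enzyme of the classic pathway, picked after its values were seen, lay from 58.3 to 307 CPM with a median of 91.3 in the controls and from 45.6 to 118 CPM with a median of 76.1 on CD-HFD, with overlap (adjusted p = 0.167). The 3 risers were exporters, Abcc4 (1.74) and, named after their values were seen, Slc51b (2.86) and Abcb4, the phosphatidylcholine floppase (0.39, a call lost in 4 fits).

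The genes nearest to the missing nutrient changed in both directions. Of 24 genes of choline use and phosphatidylcholine synthesis 14 fell and 6 rose (median -0.42, but 0.08 with library sizes alone, when 4 fell and 7 rose). Etnppl, which breaks down phosphoethanolamine, lay from 139 to 199 CPM with a median of 184 in the controls and from 18.6 to 55.3 CPM with a median of 33.6 on CD-HFD (log2 change -2.26 ± 0.32, adjusted p = 1.97e-07), every CD-HFD library below every control. Pcyt2, of phosphatidylethanolamine synthesis, with the highest mean CPM, fell (-1.11 ± 0.22). Slc44a4, a choline transporter-like protein, was picked after its values were seen and rose from a median of 0.451 to 3.97 CPM (3.38 ± 0.64). Choline is also oxidised to betaine, which feeds methyl groups into the methionine cycle. In that list 16 of 26 fell and 5 rose (median -0.64, and 11 fell and 8 rose with library sizes alone). Gnmt, the methyltransferase that buffers S-adenosylmethionine, lay from 540.0 to 2289 CPM with a median of 2078 in the controls and from 203 to 476 CPM with a median of 379 on CD-HFD (log2 change -2.17 ± 0.30, adjusted p = 7.93e-08), and Aldh1l1, of folate metabolism, fell (-1.98 ± 0.21). Bhmt, which uses betaine to remake methionine, fell (-0.55 ± 0.22) with an adjusted p of 0.033, which was lost in 13 fits (adjusted p of 0.0737 for a fit of the 2 groups compared alone and 0.793 with library sizes alone). The 5 risers, named after their values were seen, were the serine-making enzymes Psat1 (3.82 ± 0.52) and Phgdh (2.92), the mitochondrial folate enzymes Mthfd1l (2.17) and Mthfd2 (1.64), and Mat2a, the methionine adenosyltransferase of growing cells (0.63). Within the more common clock phase Mthfd1l changed by 0.99 (adjusted p = 0.0788) and Mat2a by 0.51 (adjusted p = 0.113).

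Amino acid breakdown genes fell almost throughout. Of 29 urea cycle and amino acid catabolism genes 26 fell and none rose (median -1.06, 21 lower with library sizes alone). Hal, histidine ammonia lyase, lay from 229 to 735 CPM with a median of 348 in the controls and from 67 to 154 CPM with a median of 94 on CD-HFD (log2 change -2.04 ± 0.30, adjusted p = 4.02e-07), and Asl, of the urea cycle, fell (-1.34 ± 0.21). Ass1, the step before it with the highest mean CPM of the list, fell (-1.09 ± 0.20). Of 18 genes of gluconeogenesis and glycogen 11 fell and 3 rose (median -0.75, but 5 fell and 5 rose with library sizes alone, median -0.25). G6pc, glucose-6-phosphatase, lay from 440.4 to 1292 CPM with a median of 862 in the controls and from 69.7 to 153 CPM with a median of 122 on CD-HFD (log2 change -2.91 ± 0.48, adjusted p = 2.78e-06), with no overlap. Pck1, the cytosolic PEP carboxykinase, lay from 3034 to 4917 CPM with a median of 3677 in the controls and from 1747 to 3888 CPM with a median of 3508 on CD-HFD (adjusted p = 0.363), while its mitochondrial form Pck2 rose by 1.79 ± 0.24. Ppp1r3c, a glycogen targeting subunit, fell (-2.89 ± 0.40). The other risers were Ppp1r3g, a related subunit (2.27, a call lost in 3 fits, all with clock phase), and Gyg, glycogenin (1.73, named after its value was seen).

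In the glycolysis and glucose uptake list 6 of 23 rose and 8 fell, 26.1% and 34.8% against 23.5% and 24.1% of all genes (median -0.33, but 0.16 with library sizes alone, when 9 rose and 4 fell). Pkm, the pyruvate kinase of leukocytes and other non-hepatocytes, lay from 12.3 to 18.7 CPM with a median of 16.3 in the controls and from 76.8 to 157 CPM with a median of 94.9 on CD-HFD (log2 change 2.69 ± 0.20, adjusted p = 3.55e-14), and Hk3, a hexokinase of myeloid cells, rose by 3.26 ± 0.27. Citrate cycle and respiratory chain genes fell slightly and broadly, 23 of 31 (median -0.60), but only 5 fell with library sizes alone, when 5 rose. Sdhb, of succinate dehydrogenase, fell (-0.91 ± 0.16). The 2 risers were Ucp2, the uncoupling protein of macrophages and steatotic hepatocytes, from a median of 16.4 to 123 CPM (2.96 ± 0.19), and Idh2 (0.78). Pericentral and Wnt target genes gave 7 fallers and 3 risers of 19 (median -0.37, but 0.14 with library sizes alone, when 3 fell and 7 rose), the risers being the ammonia channel Rhbg (2.08), the dicarboxylate carrier Slc13a3 (1.59) and Lect2 (1.09, named after its value was seen). Of 15 periportal genes 8 fell and 4 rose, namely Cdh1 (1.0) and, named after their values were seen, Mfsd2a (1.59), Aldh1b1 (0.94) and Hsd17b13 (0.57). The calls of Mfsd2a, Aldh1b1 and Hsd17b13 were lost in 3, 2 and 5 fits, that of Hsd17b13 with clock phase as a covariate (0.31, adjusted p = 0.228).

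**Figure D3:**
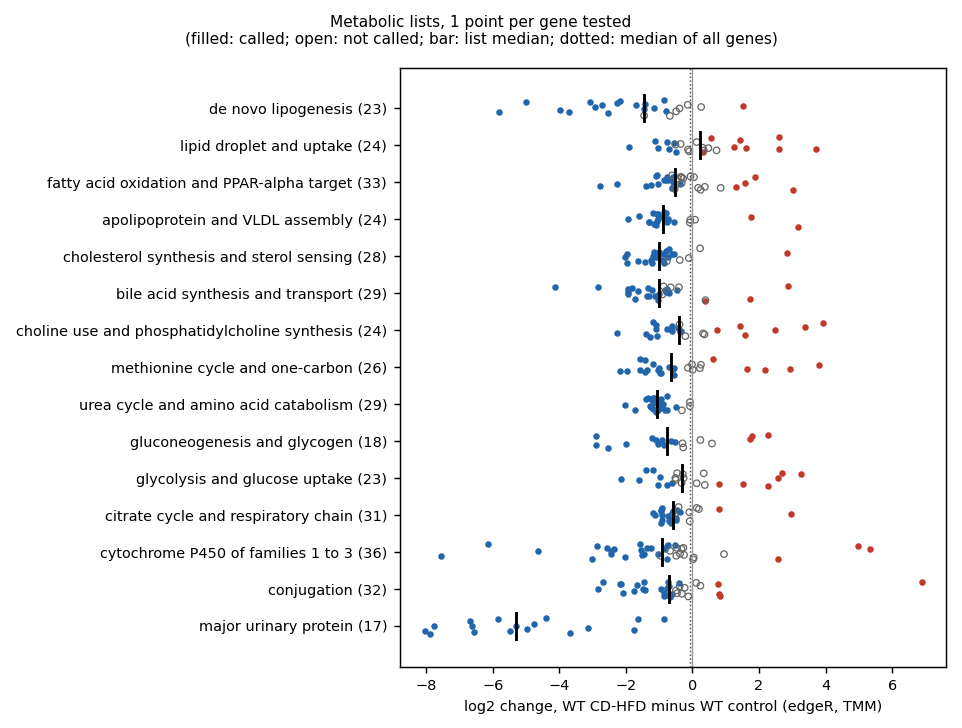
Log2 change from control to CD-HFD (x axis) of each tested gene of 15 metabolic lists (y axis, genes tested in brackets), where filled points passed the test and bars mark list medians. Lipogenesis, urea cycle and major urinary protein genes lie furthest left as lists, and with library sizes alone the medians of the phosphatidylcholine and glycolysis lists turn positive.

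Lysosome genes rose more often than they fell. Of 25 lysosome and autophagy genes 14 rose and 4 fell (median 0.43, and 20 rose and none fell with library sizes alone). Ctss, the cathepsin of antigen-presenting cells, rose from a median of 16.7 to 182 CPM (log2 change 3.94 ± 0.34, adjusted p = 1.74e-12), and Atp6v0d2, a proton pump subunit of macrophages, rose by 4.55 ± 0.40. The fallers were the autophagy kinase Ulk1 (-0.94 ± 0.19) and, named after their values were seen, Becn1 (-0.43), Gabarapl1 (-0.40) and Lamp2 (-0.74), of which Becn1 and Gabarapl1 turn positive with library sizes alone. The calls of Becn1, Gabarapl1 and Lamp2 were lost in 3, 16 and 2 fits. Ulk1 changed by -0.43 with library sizes alone (adjusted p = 0.0541).

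Major urinary protein genes were among the deepest falls. These proteins are pheromone carriers that male livers secrete under pulses of growth hormone. All 17 tested of 22 fell (median -5.29), and their summed level was 15703 to 24250.3 CPM in the controls and 3699.8 to 5727 CPM on CD-HFD. These genes are near copies that share reads, so single members are uncertain and the sum is the firmer value. Mup7 lay from 559 to 2026 CPM with a median of 1306 in the controls and from 0.648 to 15.2 CPM with a median of 3.63 on CD-HFD (log2 change -8.04 ± 0.77, adjusted p = 2.67e-11), Mup17 fell (-7.9 ± 0.78), as did Mup20, with the highest mean CPM (-0.86 ± 0.21, adjusted p = 0.160 with library sizes alone). Hsd3b5, a male-specific steroid dehydrogenase, lay from 168 to 403 CPM with a median of 251 in the controls and from 0.122 to 8.93 CPM with a median of 1.66 on CD-HFD (log2 change -6.65 ± 0.66, adjusted p = 5.76e-11). In the steroid dehydrogenase list 11 of 22 fell and 2 rose, Hsd17b6 (1.26) and Hsd17b13, whose lost calls are given above.

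Cytochromes P450 of the families that clear drugs and steroids fell in 22 of 36 and rose in 3 (median -0.90, and fell in 16 and rose in 5 with library sizes alone). Cyp2c29, an abundant epoxygenase, lay from 134 to 1947 CPM with a median of 1058 in the controls and from 9.01 to 31.4 CPM with a median of 10.6 on CD-HFD (log2 change -6.15 ± 0.52, adjusted p = 8.47e-13). Cyp2b10, the classic target of the xenobiotic receptor CAR, was picked after its values were seen. It lay from 1.71 to 12.8 CPM with a median of 2.98 in the controls, and the CD-HFD libraries held 1 count in all, a ratio of control to CD-HFD of 399 with a 95% exact interval of 70.7 to 15800.0 for counting error only. Its relative Cyp2b9, usually female-biased, went the other way, from 0 to 1.22 CPM with a median of 0.207 in the controls and from 4.43 to 27.1 CPM with a median of 10.9 on CD-HFD (log2 change 5.34 ± 0.73, adjusted p = 1e-07). The other risers were the female-biased Cyp2a4 (4.99 ± 0.65) and Cyp2a22 (2.58, named after its value was seen), and reads may be shared within these clusters. Cyp2e1, the ethanol-oxidising enzyme with the highest mean CPM, lay from 1907 to 6532 CPM with a median of 5513 in the controls and from 2497 to 4351 CPM with a median of 4001 on CD-HFD, with overlap (adjusted p = 0.238).

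Conjugating enzymes fell in 20 of 32 and rose in 4 (median -0.71, 10 lower and 6 higher with library sizes alone). Sult1e1, the oestrogen sulfotransferase, lay from 0 to 0.732 CPM with a median of 0.297 in the controls and from 20.3 to 54.1 CPM with a median of 37.3 on CD-HFD (log2 change 6.88 ± 0.73, adjusted p = 3.54e-10), and Sult2a8, a hepatic sulfotransferase, fell from a median of 769 to 115 CPM (-2.69 ± 0.21). The groups were apart in both. The other risers were the glutathione transferase Gsta2 (0.78) and, named after their values were seen, Gstm2 (0.83) and Sult1c2 (0.78). The call of Gsta2 was lost in 14 fits and that of Sult1c2 in 8, with a change of -0.11 within the more common clock phase. In that phase Gstm2 changed by 0.45 (adjusted p = 0.207).

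**Figure D4:**
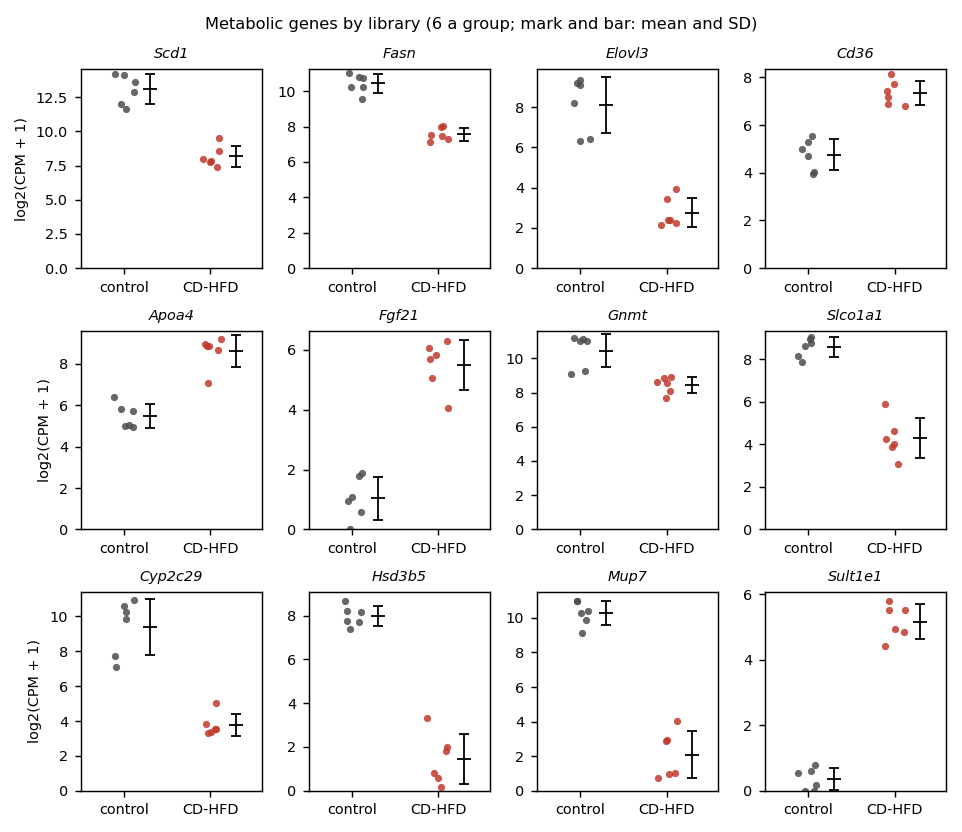
Level of 12 metabolic genes in each library as log2(CPM + 1) (y axis), in 6 control and 6 CD-HFD livers (x axis), with mean and SD beside the points. Cd36, Apoa4, Fgf21 and Sult1e1 lie higher in every CD-HFD liver, and the other 8 lie lower in every one.

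Single CD-HFD livers stood apart from the rest in some genes. Among genes of mean log2 CPM of at least 1, Mup7, Hsd3b5 and Mup11 were 3 of the 6 with the largest SD of log2 CPM within the group. Hsd3b5 lay from 0.122 to 8.93 CPM with a median of 1.66 and Mup7 from 0.648 to 15.2 CPM with a median of 3.63 on CD-HFD, and in both the highest CD-HFD liver stayed below the lowest control. Genes like these reached that mean level largely through the controls, and at their few CPM on CD-HFD the SD of log2 values holds counting error, so that it does not by itself show that the livers differed. CD-HFD replicate 3, the liver on the other side of the clock ratio, was the highest in Cyp2c29 (31.4 CPM, the others up to 13) and Cd34 (17.0 CPM, the others up to 8.66) and the lowest in Apoa4. It was also the lowest in Dbp, the clock output gene whose level is part of that ratio, at 40.6 CPM against 105.7 CPM or more in the other 5 livers. CD-HFD replicate 6 was the highest in Timp1 (23.2 CPM, the others up to 12.4) and Phlda3 (16.8 CPM, the others up to 11.6) and the lowest in Ghr (124.6 CPM, the others from 193.6 CPM). Arntl, the clock activator that peaks opposite Dbp, was itself among the genes that fell (-2.2 ± 0.44). Clock phase was read from its ratio to Dbp, so no value adjusted for phase is a test of these genes.

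Against WT livers on CD-LFD, which shares the choline deficiency, 13.7% of all genes were higher on CD-HFD and 7.4% lower by the same test. All 10 macrophage markers of the lipid-associated list were higher (median 2.31), Gpnmb by 2.93 ± 0.29 and Trem2 by 2.42 ± 0.22. Clec4d, a myeloid lectin, was one of the 3 largest such differences of the naming rule (3.69 ± 0.34, adjusted p = 1.35e-10), and from the control diet it rose by 6.12 ± 0.49. Among collagens 12 of 15 were higher, Col1a1 by 2.0 ± 0.30, from 31.7 to 79.3 CPM (median 51.1) on CD-LFD. Of the lipogenic genes 17 of 23 were lower and 2 higher, Scd1 by -3.33 ± 0.47, from 926 to 6226 CPM (median 3072). Of the major urinary protein genes 16 of 17 were lower, Mup7 by -4.07 ± 0.66. Sult1e1 was lower on CD-HFD than on CD-LFD (-1.95 ± 0.42, adjusted p = 0.000524), where it lay at 68.7 to 248 CPM (median 116), so its level was highest on the low-fat diet. With clock phase as a covariate that difference was -1.3 (adjusted p = 0.335). For Kdr the difference was -0.08 ± 0.22 (adjusted p = 0.849), and for Ly6d 0.37 ± 0.41 (adjusted p = 0.587). For urea cycle and amino acid genes 9 of 29 were lower and none higher (median -0.22).

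The difference between the WT response and that of each knockout was tested as an interaction, which shares the WT libraries between the comparisons. It was called in 0.478% of genes for Ripk3KO and 4.11% for MlklKO. For Ripk3KO 0.135% were higher and 0.343% lower, and for MlklKO 1.58% and 2.53%. These are 71 and 611 genes in all, and leaving out 1 library at a time gave 17 to 167 and 181 to 1266. Of the 64 lists, the acute-phase list held the most called members with 6 and 9 of 18, all with a smaller rise or a fall in the knockouts. The change of Lcn2 differed from WT by -6.83 ± 1.16 in Ripk3KO (adjusted p = 0.00289) and by -7.16 ± 1.28 in MlklKO (adjusted p = 0.00101). Within the more common clock phase the Ripk3KO value of Lcn2 was -7.28 with an adjusted p of 0.0578, and of the 8 named genes called in the Ripk3KO interaction 7 lost the call there and 7 with limma-voom. Of 25 named genes called in the MlklKO interaction 9 lost it in that phase and 11 without MlklKO CD-HFD replicate 4. On CD-HFD Lcn2 lay at 304 to 592 CPM (median 359) in WT, 393 to 579.8 CPM (median 464) in Ripk3KO and 320.2 to 485 CPM (median 379) in MlklKO, while the control livers lay at 0.456 to 6.59 CPM (median 1.93), 2.52 to 805 CPM (median 184) and 16.2 to 817 CPM (median 279.6). Saa1 likewise lay at 13.2 to 9088 CPM (median 2439) in Ripk3KO controls and 472 to 4047 CPM (median 1532) in MlklKO controls, above WT controls in 4 of 6 and 6 of 6 livers. Mt1 followed, with interactions of -4.58 ± 0.95 and -7.03 ± 1.12 and control medians of 1008 and 2422 CPM in the knockouts against 11.2 CPM in WT. The first of these had an adjusted p of 0.0678 with clock phase as a covariate. The knockout controls were high and widely spread in these genes, and the CD-HFD livers of the 3 genotypes overlapped in Lcn2 and Saa1. In Mt1 the Ripk3KO livers on CD-HFD lay at 244 to 355 CPM (median 315), all above the WT livers at 42.8 to 236 CPM (median 79.7), while the MlklKO livers at 91.4 to 278 CPM (median 113) overlapped both.

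For the macrophage, collagen and lipogenic genes named first the interaction did not pass the test. The interaction of Gpnmb was 1.16 ± 1.02 in Ripk3KO (adjusted p = 0.753) and 1.28 ± 0.97 in MlklKO (adjusted p = 0.517), that of Col1a1 0.24 ± 0.48 (0.923) and -0.37 ± 0.49 (0.75), and that of Scd1 1.03 ± 0.64 (0.608) and -0.37 ± 0.69 (0.834). Such p values do not show that the responses were alike. Ripk3 itself lay at 0 to 1.26 CPM (median 0.157) in Ripk3KO controls and 0 to 0.166 CPM (median 0.0426) on CD-HFD. The Ripk3KO controls overlapped the WT controls, at 0.510 to 4.88 CPM. On CD-HFD every Ripk3KO liver lay below the WT livers, at 2.33 to 4.43 CPM. Mlkl was still counted in the libraries labelled MlklKO, at 1.46 to 3.03 CPM (median 2.09) in controls and 2.79 to 12.5 CPM (median 4.82) on CD-HFD, overlapping the WT controls on the control diet and below every WT liver on CD-HFD.

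**Figure D5:**
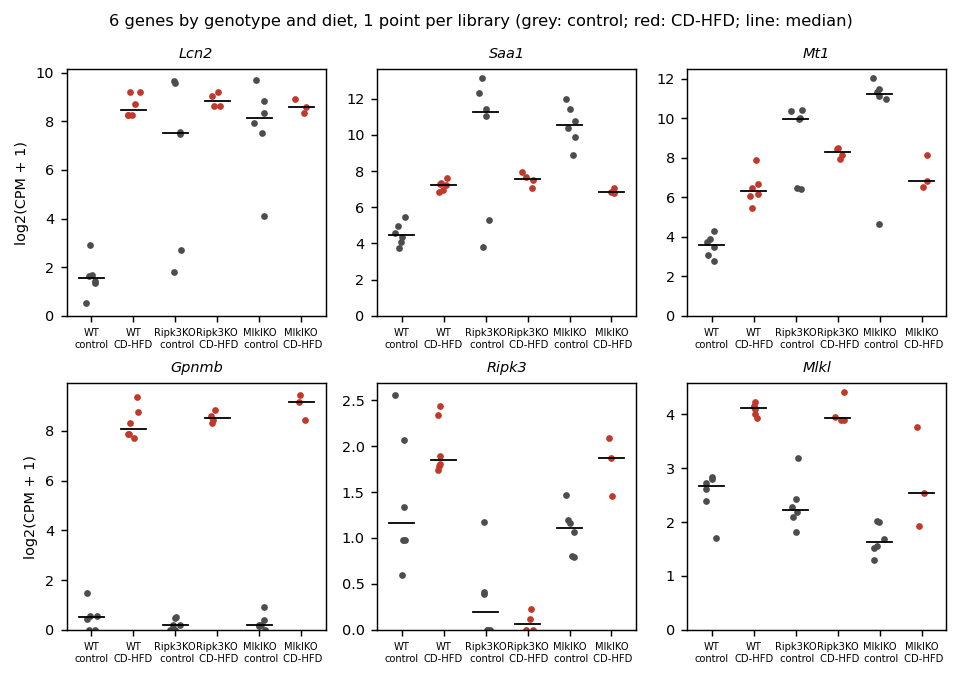
Level of 6 genes in each library as log2(CPM + 1) (y axis) by genotype and diet (x axis), with a line at the median. Control livers of both knockouts reach Lcn2, Saa1 and Mt1 levels that no WT control reaches, whereas Gpnmb is near 0 in controls and high on CD-HFD in all 3 genotypes.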

How the data were processed

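Whole-liver RNA of WT, Ripk3KO and MlklKO mice was sequenced with a stranded kit. The authors deposited a table of raw counts per gene (35249 genes, 44 libraries, no column left unused). STAR, HTSeq, FastQC, edgeR, limma and the genome GRCm39 (mm39) are named per the submitters' processing notes. Their settings, the strand setting included, are not given in the sources used here. 876 genes have no symbol (0.100% of counts).

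From the deposited counts, edgeR 4.0.16 in R 4.3.3 fitted 9 group means over all 44 libraries by quasi-likelihood after TMM scaling. A filter (filterByExpr, minimum count 10) kept 14862 genes with 99.8% of counts. The threshold was an adjusted p of 0.05 (Benjamini-Hochberg). CPM are TMM-scaled, and SE is that of the fitted log2 change. A fold against a group with no counts sets it at 3 counts over the group. Intervals cover counting error only. Library totals of 2476268 to 11070338 limit low genes. p-values measure the spread between these libraries, each labelled as a separate sample. In a test on simulated data of this comparison over 14862 genes, 200 of them changed, 53% of 2-fold and 89% of 4-fold changes were recovered, with 6 false calls. The simulated rises and falls were equal in number and came with no shift of the bulk of genes. The real comparison called 7082 genes, so these rates do not measure its recovery or its false calls. No 2 of the control libraries, nor 2 of the CD-HFD libraries, of WT mice agreed within sampling noise, and the other groups were not compared in this way.

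Named are the 12 largest rises and falls, of each list the 2 largest called rises and falls without overlap and the member of highest mean CPM, the 6 genes most variable within CD-HFD, the 3 largest differences each way in the other contrasts, and Ripk3, Mlkl, Arntl, Dbp, Xist and Ddx3y. The rule asks for a mean log2 CPM of at least 1. Genes said to be chosen after their values were seen fall outside it, as do single genes that complete a count. The members, lists and rule were chosen with earlier results of these data known. Promoter letters come from RefSeq on GRCm38.p6, matched by symbol. Alternatives were RLE factors, library sizes alone, no filter, DESeq2 1.42.0, limma-voom (limma 3.58.1), only the groups compared, a robust fit, a replicate block, clock phase, and libraries left out. Some genes that the rule names or that complete a count are not reported here.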

Additional observations from a re-analysis of the deposited data

Results flagged for a closer look

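Single libraries stood apart from the other 5 of their group, by a gap of over 0.625 of the group's range, in 29 of 466 groups of values tested (6.22%), where chance gives about 1 in 20. Among the controls these were Trem2 1.53 CPM in replicate 4 against 0.456 to 0.732 in the others, Lyz2 19.3 CPM in replicate 6 against 31.8 to 40.1 in the others, Cd74 32.4 CPM in replicate 2 against 49.1 to 58.8 in the others, Marco 34.6 CPM in replicate 5 against 4.93 to 9.92 in the others. Other values among the controls were Tlr13 0 CPM in replicate 5 against 0.488 to 0.976 in the others, Saa2 39.5 CPM in replicate 6 against 4.63 to 8.29 in the others, Hpx 2300.0 CPM in replicate 6 against 3437 to 3746 in the others, Mlkl 2.28 CPM in replicate 5 against 4.27 to 6.14 in the others. Further values among the controls were Hspa5 430.2 CPM in replicate 6 against 934 to 1396 in the others, H19 0.340 CPM in replicate 3 against all at 0 in the others, Erbb2 3.9 CPM in replicate 6 against 1.38 to 1.84 in the others, Pck2 3.19 CPM in replicate 5 against 7.98 to 9.27 in the others. Further values among the controls were Ucp2 6.75 CPM in replicate 4 against 15.6 to 25.6 in the others, Cxcr2 0.488 CPM in replicate 6 against all at 0 in the others, Gclm 161 CPM in replicate 6 against 237 to 259.8 in the others. Among the CD-HFD livers these were Marco 6.19 CPM in replicate 5 against 0.973 to 1.96 in the others, Cd34 17 CPM in replicate 3 against 6.03 to 8.66 in the others, Timp1 23.2 CPM in replicate 6 against 9.65 to 12.4 in the others, Phlda3 16.8 CPM in replicate 6 against 10.1 to 11.6 in the others. Other values among the CD-HFD livers were Ghr 125 CPM in replicate 6 against 194 to 247 in the others, Apoa4 133 CPM in replicate 3 against 408 to 575 in the others, Cyp2c29 31.4 CPM in replicate 3 against 9.01 to 13 in the others, Cyp2b10 0.109 CPM in replicate 3 against all at 0 in the others. Further values among the CD-HFD livers were Dbp 40.6 CPM in replicate 3 against 106 to 149.9 in the others, Hsp90b1 419 CPM in replicate 4 against 576 to 695 in the others, Peg3 9.74 CPM in replicate 1 against 2.72 to 4.12 in the others, Tead1 16.7 CPM in replicate 5 against 24.3 to 29.1 in the others. Further values among the CD-HFD livers were Hspa1a 38.8 CPM in replicate 3 against 4.87 to 9.85 in the others, Fth1 1616 CPM in replicate 1 against 2047 to 2252 in the others.

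Against the WT change, the Ripk3KO change from control to CD-HFD was more negative by edgeR's interaction test for Lcn2 -6.83, Orm2 -5.01, Saa1 -6.71, Saa2 -7.67, Chac1 -4.04, Herpud1 -1.84, Mt1 -4.58 (log2 difference). It was more positive for Ppp1r3c 2.43. Against the WT change, the MlklKO change from control to CD-HFD was more negative by edgeR's interaction test for Timp1 -6.95, Cd14 -2.55, Lcn2 -7.16, Saa1 -6.63, Saa2 -7.66, Chac1 -3.34, Hspa5 -1.52, Mt1 -7.03, Ly6d -5.1, Cidec -2.02, Apoa4 -1.82, Sult1e1 -5.28, Tirap -1.16, Fgb -1.58, Fgg -1.63, Cebpb -1.02, Cebpd -1.7, Tead1 -1.68 (log2 difference). It was more positive for Kdr 1.55, Tk1 1.3, Hnf4aos 2.84, Angptl8 2.35, Etnppl 2.18, Hal 1.5, Ppp1r3c 2.09. For Ripk3KO, 7 of these 8 calls were lost within the larger clock phase, 3 with the clock covariate, 7 with limma-voom and 3 with only the groups compared. Of 36 alternative fits, the number that lost the call was Lcn2 2, Orm2 4, Saa1 2, Saa2 2, Chac1 1, Herpud1 17, Mt1 4, Ppp1r3c 17. For MlklKO, 9 of these 25 calls were lost within the larger clock phase, 8 with the clock covariate, 6 with limma-voom and 7 with only the groups compared. Of 35 alternative fits, the number that lost the call was Timp1 1, Chac1 2, Hspa5 17, Tk1 20, Ly6d 1, Hnf4aos 13, Angptl8 13, Cidec 17, Apoa4 6, Hal 21, Ppp1r3c 19, Fgb 1, Fgg 5, Cebpb 18, Cebpd 1, and 0 for the others. Timp1 had no count in any WT control, so its WT change has only a lower bound, and its difference is a fitted value and no measure of size. In Lcn2, Saa1 and Mt1 the knockout controls were high and spread, as given above. Control levels differed from WT in others of these genes as well. Median Fgb was 3721 CPM in WT and 12382 CPM in MlklKO controls, and 2070 and 2126 CPM on CD-HFD. Median Ppp1r3c was 45.4, 13.2 and 10.9 CPM in WT, Ripk3KO and MlklKO controls. On CD-HFD it was 8.23, 11.8 and 6.25 CPM. Chac1 medians differed on both diets, at 1.61, 7.65 and 6.46 CPM in these controls and 9.8, 3.34 and 3.19 CPM on CD-HFD. The part of the controls in the differences was not tested.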

How the results depend on the processing

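The total of diet calls over all genes kept within 1.5 times under every alternative run, from 5592 with only the groups compared to 8136 without WT control replicates 5 and 6, and the fit with a replicate block gave 7057 against 7082. The split by direction moved further, from 3496 higher and 3586 lower to 6799 and 1021 with library sizes alone. With mitochondrially encoded and Mup genes also out of the totals it was 6343 and 1118. Pairing by equal replicate numbers was not settled (correlations of -0.15 to 0.44, 4 of 6 pairs over 0.1 where all were asked for, 3 of 6 controls closest to their own number), so the fit without the block was kept. The Ripk3KO interaction went from 71 genes to 204 (DESeq2), 27 (limma-voom), 20 (only the groups compared), 25 (clock covariate), 2 (larger clock phase only), 149 (without WT control replicates 5 and 6) and 118 (clock covariate without WT control replicates 5 and 6). It ran from 17 to 167 without 1 library, moving by over 1.5 times for WT control replicates 2, 3 and 4, Ripk3KO control 1 to 4 and Ripk3KO CD-HFD 1, 2, 3 and 5. The MlklKO interaction went from 611 to 968 (DESeq2), 228 (only the groups compared) and 986 (without WT control replicates 5 and 6), and from 181 to 1266 without 1 library, moved by MlklKO control 1, 5 and 6 and MlklKO CD-HFD 2 and 4. The cause was not tested. With library sizes alone, log2 changes turned positive for Stat2 0.40, Herpud1 0.48, Hspa5 0.23, Glul 0.43, Pck1 0.22, Cyp2e1 0.18, Vtn 0.060, Il18 0.048, Hsp90b1 0.030, Gclm 0.086, Ei24 0.13, Erbb3 0.0020, Fgfr4 0.019, Gabarapl1 0.11, Becn1 0.072, Hsp90ab1 0.047, Cd4 0.38. With mitochondrially encoded and Mup genes also out of the totals, an alternative added after seeing the data, they were Stat2 0.33, Herpud1 0.46, Hspa5 0.21, Glul 0.41, Pck1 0.18, Cyp2e1 0.16, Vtn 0.016, Il18 0.0087, Gclm 0.054, Ei24 0.10, Gabarapl1 0.087, Becn1 0.038, Cd4 0.34. Within the larger clock phase signs turned for Il1b 0.065, Stat2 0.73, Arntl 0.36, Dbp -0.48, Vtn 0.00014, Sult1c2 -0.11, Cd4 0.51. With RLE size factors signs turned for Herpud1 0.028. Without the count filter signs turned for Stat2 0.013, Herpud1 0.014. With DESeq2 signs turned for Herpud1 0.028. With limma-voom signs turned for Stat2 0.10, Herpud1 0.094. With the replicate block signs turned for Stat2 0.012. With the clock covariate signs turned for Stat2 0.22, Cd4 0.25. Without WT control replicates 5 and 6 signs turned for Stat2 0.63. With the covariate and without both signs turned for Stat2 0.54, Cd4 0.20. Over fits that left out 1 library the values of genes that turned were Stat2 -0.20 to 0.19, Herpud1 -0.22 to 0.22, Glul -0.19 to 0.029, Cd4 -0.42 to 0.058. Differences between contrasts that did not pass the test turned for Gpnmb Ripk3KO -0.29 (covariate without controls 5 and 6), and for Col1a1 Ripk3KO -0.044 (clock covariate), -0.002288 to 0.37 without 1 library, and for Gpnmb MlklKO -0.16 (covariate without controls 5 and 6), and for Scd1 MlklKO 0.82 (larger clock phase), 0.041 (without controls 5 and 6), 0.049 (covariate without controls 5 and 6), -1.003 to 0.051 without 1 library, and for Kdr CD-LFD 0.14 (library sizes alone), 0.095 (covariate without controls 5 and 6), 0.11 (those with mitochondrially encoded and Mup genes out). With library sizes alone the sign of the list median turned for complement 0.058, unfolded protein and integrated stress 0.48, heat shock chaperone 0.49, metallothionein, zinc and iron 0.23, growth hormone and IGF axis 0.22, pericentral and Wnt target 0.14, ketone body synthesis 0.26, choline use and phosphatidylcholine synthesis 0.078, glycolysis and glucose uptake 0.16, hepatokine and secreted regulator 0.44, liver transcription factor and nuclear receptor 0.0058. With RLE factors it turned for unfolded protein and integrated stress 0.049, heat shock chaperone 0.036. With DESeq2 it turned for unfolded protein and integrated stress 0.049, heat shock chaperone 0.039. With the clock covariate it turned for circadian clock -0.23, unfolded protein and integrated stress 0.084, growth hormone and IGF axis 0.23. Within the larger clock phase it turned for circadian clock -0.49, unfolded protein and integrated stress 0.087, growth hormone and IGF axis 0.58, lipid droplet and uptake -0.20, ketone body synthesis 0.015, mitochondrially encoded 0.51. Without WT control replicates 5 and 6 it turned for circadian clock -0.15, heat shock chaperone 0.12, lipid droplet and uptake -0.020, mitochondrially encoded 0.031. With the mean in place of the median it turned for circadian clock -0.088, complement 0.064, unfolded protein and integrated stress 0.77, heat shock chaperone 0.16, growth hormone and IGF axis 0.014, ketone body synthesis 0.57, choline use and phosphatidylcholine synthesis 0.017, glycolysis and glucose uptake 0.082, hepatokine and secreted regulator 0.45. Among genes of mean log2 CPM of at least 1 it turned for T and NK cell -0.12. The stress list median ran from -0.047 to 0.10 without 1 library and the heat shock median from -0.24 to 0.061. The difference in percent of counts in predicted genes ran from -0.054 to 0.20 without 1 library, and that in mitochondrially encoded counts from -2.0 to 0.39 (highest without WT control replicate 6), and was 0.38 for medians. Of 215 named genes that passed the test, calls were lost (turned signs included) in 39 within the larger clock phase, 34 with library sizes alone, 32 with mitochondrially encoded and Mup genes also out, 25 with the clock covariate, 22 with the covariate and without WT control replicates 5 and 6, 21 with only the groups compared, 16 without the filter, 13 without WT control replicates 5 and 6, 11 with limma-voom, 8 with RLE, 7 with DESeq2, 5 with the replicate block and 0 with the robust fit. Of the 13 that had not passed, 5 did with library sizes alone, 4 with limma-voom, 5 within the larger clock phase and 5 without WT control replicates 5 and 6. 154 kept the call and the direction in every fit. Of those that did not, Clec4f, Fabp1, Gstm2, Hpx, Idh2, Marco, Mat2a, Mthfd1l, Pcyt2, Peg3, Saa1 lost it only within the larger clock phase. Control depth limits genes under about 1 CPM, where folds are fitted values.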

Other observations

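Markers of other cells that a liver sample can also hold differed in level. Of 6 smooth muscle markers 3 were tested, 0 rose and 0 fell, with a summed level of 8.41 to 20.5 CPM in the controls and 12.2 to 19.4 CPM on CD-HFD. Of 6 adipocyte markers 2 were tested, 0 rose and 1 fell. Mesothelial markers, from the surface of the organ, gave 1 higher and 0 lower of 2 tested and 5 listed. Red-cell precursor markers gave 0 higher and 3 lower of 5 tested, and 1 lower with library sizes alone. Their summed level was 145 to 249 CPM in the controls and 61.8 to 275 CPM on CD-HFD. Of 7 pancreatic enzyme genes 1 passed the count filter, and it fell (-1.18). Their part in the changes of other lists was not tested.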
